A study of Mus musculus with 12 samples.

Results

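The genes described are the collagen chain genes, defined as all genes whose current mouse symbol has the form Col, a type number, the letter a and a chain number. The array carried 44 of them among 31758 genes and unnamed transcripts, measured by 76 probes. Levels of RNA were read on 12 one-colour Agilent arrays in 3 groups of 4: undifferentiated embryonic stem cells of the mouse (mESC), and the same kind of cells after 9 and 14 days of differentiation (day 9, day 14). Per the labels, the culture plates carried a coat of elastin-like polypeptide (a synthetic protein built on the repeats of elastin) that had been crosslinked, and cells were kept in a stem cell medium without LIF, the cytokine that holds mouse stem cells undifferentiated, and then in a medium with knockout serum replacement. The same culture text stands with every sample, so the sources used here leave the sampling day of mESC unstated, and no strain, clone or genetic change of the cells is stated for any group. The series title names cardiac differentiation of mouse stem cells as the subject.

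Collagens are secreted proteins whose chains carry long repeats of glycine followed by 2 other residues, which let chains wind around each other as a triple helix. Fibrillar collagens pack side by side into the fibrils of connective tissue, network collagens form the sheets of basement membranes and related layers, and the beaded filaments of type VI collagen link cells to both. Fibril-associated collagens with interrupted helices (FACIT collagens) sit on the surface of fibrils, and transmembrane collagens, multiplexins and the anchoring fibrils of skin make up the rest. In the heart, fibroblasts are the main source of fibrillar collagen, and muscle cells are wrapped in a basement membrane that holds type IV collagen.

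The table of promoters from RefSeq (GRCm38.p6) held windows for 35 of the 44 genes, 38 windows in all. The 250 bases before the annotated start are shown for 2 pairs of type IV chain genes that lie head to head on opposite strands, since their changes are compared below, and for Col1a2 and Col3a1, whose RNA was among the most changed of the fibrillar chains. Capitals mark 3 motifs searched on both strands and printed as they read on the strand of the gene. The CCAAT box was searched as its own letters. The GC box was searched as GGGCGG. The TATA box was searched as TATAAA. No match of one motif overlapped a match of another in these windows.
Col4a1 (chr8:11312827-11313076, minus strand): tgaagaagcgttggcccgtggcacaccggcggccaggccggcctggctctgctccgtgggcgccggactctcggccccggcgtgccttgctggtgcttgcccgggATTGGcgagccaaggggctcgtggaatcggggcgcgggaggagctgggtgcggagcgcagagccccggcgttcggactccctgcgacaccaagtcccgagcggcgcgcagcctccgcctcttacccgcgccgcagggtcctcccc
Col4a2 (chr8:11312555-11312804, plus strand): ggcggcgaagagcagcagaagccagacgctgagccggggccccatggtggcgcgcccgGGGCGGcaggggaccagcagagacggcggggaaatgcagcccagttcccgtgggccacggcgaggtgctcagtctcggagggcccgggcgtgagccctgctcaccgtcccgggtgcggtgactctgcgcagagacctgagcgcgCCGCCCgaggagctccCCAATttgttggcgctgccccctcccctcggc
Col4a5 (chrX:141475169-141475418, plus strand): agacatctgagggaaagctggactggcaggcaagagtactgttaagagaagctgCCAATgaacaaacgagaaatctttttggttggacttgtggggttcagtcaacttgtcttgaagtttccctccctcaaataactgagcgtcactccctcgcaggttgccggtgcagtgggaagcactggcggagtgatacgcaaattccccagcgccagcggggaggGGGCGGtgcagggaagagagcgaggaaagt
Col4a6 (chrX:141474077-141474326, minus strand): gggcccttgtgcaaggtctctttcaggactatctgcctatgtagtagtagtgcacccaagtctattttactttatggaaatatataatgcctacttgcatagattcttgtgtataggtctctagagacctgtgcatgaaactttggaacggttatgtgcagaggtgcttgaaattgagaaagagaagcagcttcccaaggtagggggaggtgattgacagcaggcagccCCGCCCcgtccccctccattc
Col1a2 (chr6:4505368-4505617, plus strand): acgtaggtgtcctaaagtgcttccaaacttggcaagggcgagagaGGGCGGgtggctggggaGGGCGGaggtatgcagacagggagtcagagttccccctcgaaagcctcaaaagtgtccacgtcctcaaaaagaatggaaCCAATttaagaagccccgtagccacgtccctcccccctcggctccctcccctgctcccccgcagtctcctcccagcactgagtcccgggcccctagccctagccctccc
Col3a1 (chr1:45311288-45311537, plus strand): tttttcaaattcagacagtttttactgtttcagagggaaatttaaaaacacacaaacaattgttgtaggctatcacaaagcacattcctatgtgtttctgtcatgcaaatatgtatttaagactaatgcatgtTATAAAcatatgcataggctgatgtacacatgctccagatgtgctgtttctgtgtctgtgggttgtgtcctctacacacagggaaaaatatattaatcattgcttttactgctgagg
The annotated starts of Col4a1 and Col4a2 lay 21 bases apart and their transcripts overlapped there. Those of Col4a5 and Col4a6 lay 1343 bases apart without overlap. GGGCGG was found in 22 of the 38 collagen windows (57.9%), against 32.7% of the 32851 windows of the table. CCAAT was found in 13 (34.2%, against 33.8%) and TATAAA in 5 (13.2%, against 12.4%). In the 29 windows of genes that were higher at day 14 than in mESC, the GC box was found in 19 (65.5%), the CCAAT box in 10 (34.5%) and the TATA box in 2 (6.9%). These matches describe letters, not binding. The Col3a1 window was the poorest in G and C of those shown, at 35.2%, against 47.6% to 74.4% in the others.

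Levels are given as log2 processed signal minus the 75th percentile of the same array, so that 0 is the brightness of that percentile. Levels of different probes cannot be set against each other. To be tested, a probe had to be flagged as well above background on 3 or more arrays of 1 or more groups, and the brightest such probe stood for its gene. Of the 44 members 40 were tested. Col4a3, Col6a5, Col10a1 and Col28a1 were not, as none of their probes was well above background on any array. A gene was called higher or lower at an adjusted p under 0.05 with a log2 fold change of at least 1 in size, and changes are log2 fold changes ± SE over 4 arrays a group. Whether the 4 samples of each group came from different cultures is not stated, so the p-values reflect only how these samples spread, and that spread may be technical. Slide, scan and group coincided throughout, and their effects cannot be told apart. Both comparisons with mESC use the same mESC arrays.

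The 75th percentile of signal ran from 345.9 to 507.7 over the arrays and 60.0% to 68.7% of spots were well above background. Arrays of 1 group correlated at 0.989 or more across genes, which are not independent replicates. As a check of the labels, the summed level of 8 pluripotency genes was 615 to 662 times the 75th percentile in mESC, 17.2 to 25.6 at day 9 and 13.9 to 14.9 at day 14. That of 8 cardiomyocyte genes was 5.27 to 5.99, 213 to 413 and 212 to 279 in the same order. That of 8 fibroblast genes other than collagens was 12.3 to 13.3, 61.9 to 141 and 206 to 231, with Dcn, Lum, Postn and Tcf21 not above background in mESC. Of these 8 genes, 6 were higher and 1 (Thy1) lower than in mESC at both days, and between the days 3 were higher and 1 (Postn) lower, with a median change of −0.26. Macrophage markers (7 genes) summed to 0.192 to 0.221, 0.332 to 0.447 and 16.7 to 20.9, and liver and visceral endoderm markers (6 genes) to 0.0491 to 0.132, 39.0 to 65.7 and 192 to 207. In such bulk RNA fewer cells of a type and less RNA per cell cannot be told apart. The part of any cell type in the changes below was not tested.

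At day 9 the RNA of 27 collagen genes was higher than in mESC and that of 4 was lower, while 9 of the 40 tested members were not called. Of all 20875 genes tested 20% were higher and 21% lower, 41% in all. At day 14 against mESC 34 collagen genes were higher, none was lower and 6 were not called, where 22.8% of all genes were higher and 24.1% lower, 46.9% in all. At day 14 against day 9, 22 members were higher and 1 was lower, beside 10.2% and 3.61% of all genes, 13.8% in all. Of these 22, Col6a6 and Col19a1 passed the filter through day 14 only, so their rise was built into their being tested, and without them 20 of 38 members were higher. With normexp, another way to correct the background, none of the 4 lower calls at day 9 was kept, and 14 members were higher and none lower between the days. The median change over the 40 members was 2.60, 4.05 and 1.13 in these comparisons, and the median over all genes was −0.16, −0.19 and −0.09. Both medians of the members against mESC include 12 members with no probe above background in mESC. The size of these medians is therefore not a measured one. The adjusted p of the calls was at most 2.56e-07, 2.22e-05 and 0.000105. Without a minimum change, 2 members would be called lower at day 14 against mESC.

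The 12 members Col3a1, Col4a5, Col6a1, Col6a6, Col8a1, Col8a2, Col9a1, Col12a1, Col14a1, Col15a1, Col19a1 and Col24a1 had no probe above background on any mESC array. They passed the filter only through the later days, so a difference from mESC was built into their being tested. For them a bound is given, "at least N-fold", computed against the dimmest signal well above background on each mESC array. For Col4a6 and Col6a3 the probe that stood for the gene was likewise below background in mESC, while another probe was not, and their bounds hold for that probe alone. Counting only probes above background on all 12 arrays, 14 members were higher at day 9 and 18 at day 14 against mESC. Between the days 12 were higher at day 14. Fewer members have such a probe, so these counts cannot be set directly beside those without this limit. Of the 31, 34 and 23 members called without this limit, 19, 19 and 14 had such a probe, in the same order. Of these, 17, 18 and 13 kept their call. Of all 15898 genes tested under this limit, 2351, 2549 and 894 were higher.

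**Figure D1:**
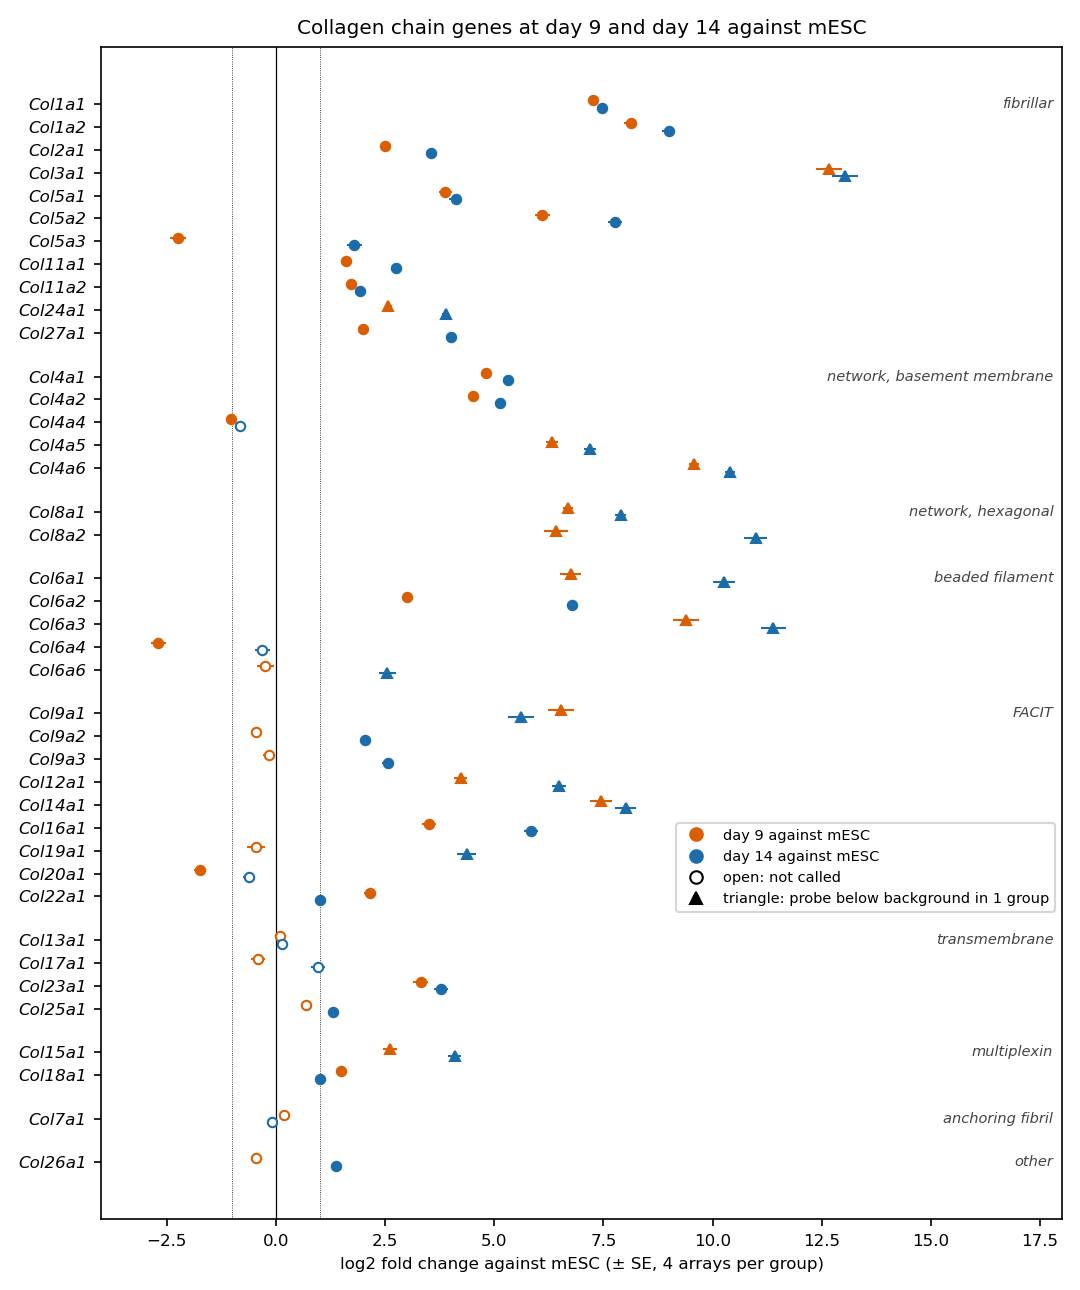
Log2 fold change (x axis, ± SE, 4 arrays per group) of the 40 tested collagen genes by class, at day 9 (orange) and day 14 (blue) against mESC. Filled points were called, open points were not, triangles mark genes whose probe was below background in 1 group so that the fold is a bound, and the dotted lines stand at a log2 change of 1 in either direction. The fibrillar genes lie right of 1 at both days except Col5a3, which lies at −2.24 at day 9 and 1.80 at day 14.

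By timing, and by the brightest probe of each gene, the 40 tested members fell into 7 patterns. The share of all genes in each pattern was not computed, so whether these counts differ from those of other genes was not tested. For Col1a1 and Col3a1, counted here as without a further call, other probes were called higher between the days. The RNA of 13 was higher at day 9 than in mESC and higher again at day 14, and that of another 13 was higher at day 9 with no further call. For 6 (Col6a6, Col9a2, Col9a3, Col17a1, Col19a1 and Col26a1) the only call from step to step was the one at day 14 against day 9. For 3 (Col5a3, Col6a4 and Col20a1) the RNA was lower at day 9 and higher at day 14 than at day 9. Col22a1 was higher at day 9 and lower at day 14 than at day 9, Col4a4 was lower at day 9 with no further call, and Col7a1, Col13a1 and Col25a1 were called in neither step. The groups did not overlap in 35 of the 40 members between day 9 and mESC, in 39 between day 14 and mESC and in 32 between day 14 and day 9, beside 78.6%, 83.9% and 57.4% of all genes.

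The fibrillar class was the largest, with 11 genes, all tested. At day 9, 10 were higher than in mESC and 1 was lower, with a median change of 2.58. This median was the value of Col24a1, which was below background in mESC, so its size is not a measured one. At day 14 all 11 were higher, with a median of 4.00. Between the days 6 were higher and 5 were not called.

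Col1a1 and Col1a2 encode the chains of type I collagen, the main collagen of fibrous tissue and bone. The level of Col1a1 on arrays 1 to 4 was −0.94, −0.85, −0.81 and −0.90 in mESC, 6.55, 6.10, 6.34 and 6.58 at day 9, and 6.63, 6.59, 6.52 and 6.60 at day 14. Both days lay far above mESC and overlapped each other. Col1a1 rose by 7.27 ± 0.09 at day 9 and by 7.46 ± 0.09 at day 14, with 0.19 ± 0.09 between the days, which was not called. The level of Col1a2 was −1.50, −1.47, −1.44 and −1.40 in mESC, 7.06, 6.20, 6.52 and 6.91 at day 9, and 7.61, 7.59, 7.50 and 7.50 at day 14. Here no group overlapped another, and the day 9 arrays spread over 0.87 while those of day 14 spread over 0.11. Col1a2 rose by 8.12 ± 0.15 and 9.00 ± 0.15, and its change of 0.88 ± 0.15 between the days was below the minimum for a call, though without day 9 replicate 1 it was called at 1.01.

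Col3a1, the chain of type III collagen, which accompanies type I in vessel walls and stroma, was not above background on any mESC array. Its level was 6.16, 5.57, 5.89 and 6.23 at day 9 and 6.44, 6.45, 6.37 and 6.07 at day 14, so the 2 days overlapped. It was at least 2559-fold higher at day 9 and at least 3306-fold higher at day 14 than in mESC.

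Type V collagen starts the assembly of type I fibrils, and its 3 chain genes went apart. Col5a1 rose by 3.88 ± 0.15 at day 9 and 4.12 ± 0.15 at day 14. Col5a2 had levels of −3.83 to −3.68 in mESC, 1.78 to 2.76 at day 9 and 3.91 to 4.07 at day 14. It rose by 6.10 ± 0.17 and 7.76 ± 0.17. Col5a3 had levels of −2.79, −3.07, −3.0 and −2.83 in mESC, −4.56, −5.55, −5.28 and −5.25 at day 9, and −1.20, −0.91, −1.28 and −1.12 at day 14. It was thus lowest on every day 9 array and highest on every day 14 array. It fell by 2.24 at day 9 (SE 0.18), was 1.80 ± 0.18 higher at day 14 than in mESC and 4.03 ± 0.18 higher than at day 9. With normexp the change at day 9 was −0.69 and not called, while both day 14 calls were kept.

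By the brightest probe of each gene, the cartilage fibril chains rose at both days. Col2a1, the chain of type II collagen, had levels of −1.30 to −1.22 in mESC, 1.09 to 1.35 at day 9 and 2.19 to 2.40 at day 14. It rose by 2.50 ± 0.06 and 3.55 ± 0.06. Col11a1 and Col11a2, chains of the type XI collagen found within cartilage fibrils, rose by 1.62 ± 0.09 and 1.71 ± 0.11 at day 9 and by 2.75 ± 0.09 and 1.92 ± 0.11 at day 14. The second probe of Col11a1 was called higher at both days. That of Col2a1 was called at neither day, at 0.94 and 0.52. That of Col11a2 was called lower at day 9, at −1.02, and was not called at day 14, at −0.06. Of 7 other cartilage genes on the marker list 6 were tested, and against mESC 2 were higher and 4 lower at day 9, with a median change of −1.50, and 2 higher and 3 lower at day 14. Their summed level was 0.660 to 0.791 times the 75th percentile in mESC, 1.12 to 1.5 at day 9 and 1.13 to 1.34 at day 14, with Matn1 not above background at either day.

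Col24a1 and Col27a1 encode minor fibrillar collagens found in developing bone and cartilage. Col24a1 was at least 1.82-fold higher at day 9 and at least 4.51-fold higher at day 14 than in mESC, and Col27a1 rose by 1.98 ± 0.10 and 4.00 ± 0.10. With normexp the day 9 calls of Col11a2, Col24a1 and Col27a1 were lost, as were the day 14 calls of Col11a2 and Col24a1, and between the days those of Col2a1, Col11a1 and Col24a1. Between the days Col2a1 and Col11a1 also missed the call when arrays were scaled to the median. With the mean over probes Col11a2 changed by 0.34 at day 9 and 0.93 at day 14, and Col2a1 by 0.32 between the days, none of them called.

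**Figure D2:**
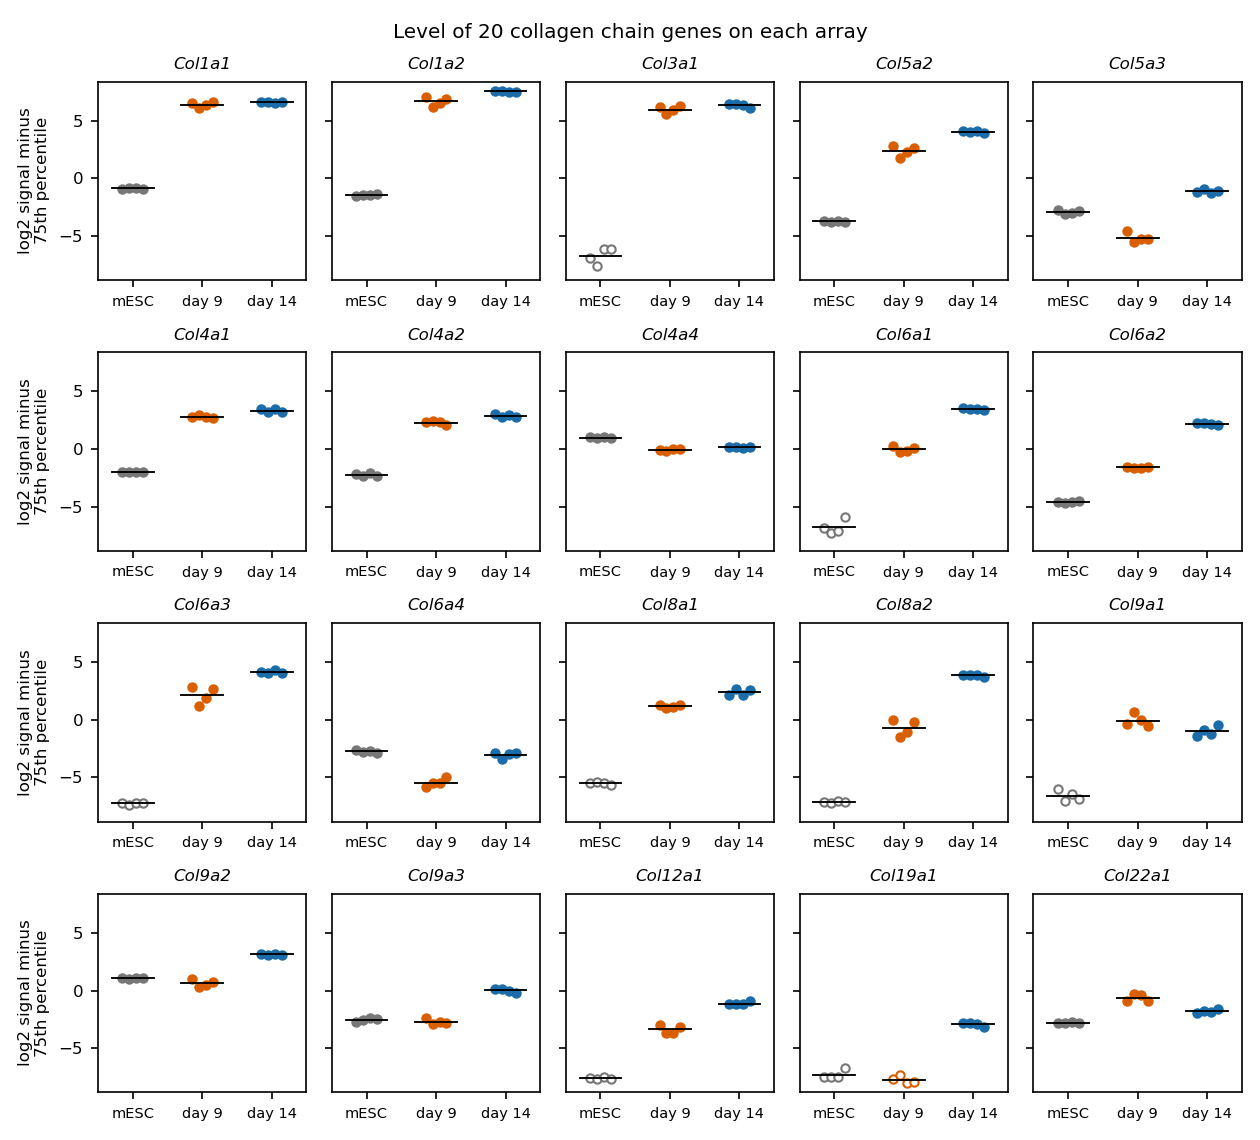
Level of 20 collagen genes on each of the 12 arrays (log2 signal minus the 75th percentile of the array, y axis) for mESC (grey), day 9 (orange) and day 14 (blue), with the group mean as a line. Open points mark a group in which the probe was not well above background on any array. Col5a3 and Col6a4 dip at day 9, Col22a1 peaks there, and the 4 arrays of Col6a3 spread from 1.16 to 2.83 at day 9.

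In the basement membrane class, by the brightest probe of each gene, 4 of 6 genes were higher than in mESC at both days. Of the other 2, Col4a3 was not tested and Col4a4 was lower at day 9. Between day 9 and day 14 all 5 tested genes rose, by 0.20 to 0.87, but none reached the minimum change for a call. The 2 days did not overlap in any of the 5, beside no overlap in 57.4% of all genes. Col4a1 and Col4a2 encode the chains found in nearly all basement membranes. Col4a1 had levels of −2.03 to −1.99 in mESC, 2.68 to 2.92 at day 9 and 3.18 to 3.45 at day 14. Col4a2 had levels of −2.35 to −2.09, 2.09 to 2.43 and 2.80 to 3.0 in the same order. Neither gene had overlapping groups. Col4a1 rose by 4.82 ± 0.07 and 5.33 ± 0.07, and Col4a2 by 4.52 ± 0.09 and 5.13 ± 0.09.

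Col4a5 and Col4a6 encode chains that pair in the basement membranes of smooth muscle and some epithelia. Col4a5 was at least 20.1-fold higher at day 9 and at least 36.6-fold higher at day 14 than in mESC, with levels of −1.36 to −0.80 at day 9 and −0.43 to 0.02 at day 14. The brightest probe of Col4a6 was at least 212-fold and 376-fold higher, with levels of 1.99 to 2.66 and 3.18 to 3.22. Col4a4, which joins Col4a3 and Col4a5 in the filter membrane of the kidney, had levels of 1.00, 0.92, 1.02 and 0.96 in mESC, −0.05, −0.15, −0.02 and 0.05 at day 9 and 0.16, 0.14, 0.12 and 0.18 at day 14. All mESC arrays lay above all later arrays. It fell by 1.02 at day 9 (SE 0.05), close to the minimum for a call, and its −0.83 ± 0.05 at day 14 was not called. Without day 9 replicate 2, with quantile normalization and with normexp the day 9 call was lost. Scaled to the median, Col4a4 was called lower at day 14 too, at −1.15. Parietal endoderm markers, from a cell type that makes much basement membrane, summed to 15.1 to 16 times the 75th percentile in mESC, 48.9 to 71.6 at day 9 and 92.7 to 107 at day 14 over 5 tested genes of 6 listed. Thbd was not above background in mESC. Smooth muscle markers (5 genes) summed to 8.85 to 9.48, 118 to 136 and 97.8 to 108.

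Of the hexagonal network genes Col8a1 and Col8a2, chains of the type VIII collagen of vessels and the cornea, were higher at both days and between the days, and Col10a1, a chain of cartilage that is about to turn to bone, was not tested. The level of Col8a1 was 1.03 to 1.30 at day 9 and 2.11 to 2.65 at day 14. The level of Col8a2 was −0.02, −1.52, −1.08 and −0.17 at day 9 and 3.89, 3.93, 3.90 and 3.74 at day 14. Col8a1 was at least 92.0-fold and 213-fold higher than in mESC at day 9 and day 14, and Col8a2 at least 25.3-fold and 598-fold. Col8a2 rose by 4.56 ± 0.27 at day 14 against day 9 and Col8a1 by 1.21 ± 0.12.

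The beaded filament genes all belong to type VI collagen. All 5 that were tested were higher at day 14 than at day 9, with a median change of 2.79. Col6a6 was tested through day 14 only, and the other 4 had a median of 2.95. In the basement membrane class no gene reached the minimum change for a call, and the median was 0.61. At day 9 against mESC 3 of the 6 genes were higher and 1 was lower, and at day 14 against mESC 4 were higher. Col6a1, Col6a2 and Col6a3 encode the 3 chains of the common form. Col6a1 was below background in mESC and had levels of 0.23, −0.25, −0.17 and 0.11 at day 9 and 3.58, 3.50, 3.51 and 3.37 at day 14. It was at least 40.5-fold higher at day 9 and at least 462-fold higher at day 14 than in mESC, and 3.51 ± 0.24 higher at day 14 than at day 9. Col6a2 had levels of −4.71 to −4.50 in mESC, −1.66 to −1.53 at day 9 and 2.06 to 2.28 at day 14. It rose by 2.99 ± 0.06 at day 9 and by 6.78 ± 0.06 at day 14, which included 3.78 ± 0.06 between the days. The brightest probe of Col6a3 had levels of 2.83, 1.16, 1.92 and 2.63 at day 9 and 4.15, 4.03, 4.30 and 4.08 at day 14. By that probe Col6a3 was at least 180-fold and 724-fold higher than in mESC and rose by 2.00 ± 0.29 between the days.

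Col6a4, Col6a5 and Col6a6 lie next to each other on chromosome 9 and encode chains that can take the place of the third chain. Col6a5 was not tested. Col6a4 had levels of −2.60, −2.78, −2.73 and −2.87 in mESC, −5.81, −5.46, −5.5 and −4.98 at day 9, and −2.87, −3.44, −3.0 and −2.91 at day 14. Day 9 lay below both other groups on every array. It fell by 2.69 at day 9 (SE 0.17) and was 2.38 ± 0.17 higher at day 14 than at day 9. Its second probe, above background on all 12 arrays, changed by −0.29 and −0.25, neither of which was called. Col6a6 was above background only at day 14, where it was at least 2.02-fold higher than in mESC and at least 2.64-fold higher than at day 9. With normexp the calls of Col6a4 and Col6a6 were lost.

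Of the 9 FACIT genes, all tested, 5 were higher and 1 lower at day 9 than in mESC, 8 were higher at day 14 than in mESC, and 6 were higher and 1 lower at day 14 than at day 9. Col12a1, Col14a1 and Col16a1 encode collagens that bind fibrils in many connective tissues. Col12a1 was at least 3.95-fold higher at day 9 and at least 18.8-fold higher at day 14 than in mESC, with levels of −3.71 to −2.97 and −1.21 to −0.95. Col14a1 was at least 110-fold and 163-fold higher, with levels of 1.99, 0.67, 1.20 and 1.81 at day 9 and 1.87, 2.03, 1.99 and 2.07 at day 14. The days overlapped, and the difference of 0.57 ± 0.25 was not called. Col16a1 had levels of −1.27 to −1.07 in mESC, 1.85 to 2.77 at day 9 and 4.51 to 4.76 at day 14. It rose by 3.51 ± 0.17 and 5.84 ± 0.17.

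The 3 chain genes of type IX collagen, which coats the fibrils of cartilage, had different time courses. Col9a1 was below background in mESC, with levels of −0.35, 0.65, −0.05 and −0.50 at day 9 and −1.38, −0.90, −1.23 and −0.47 at day 14. It was at least 39.3-fold higher at day 9 and at least 20.6-fold higher at day 14 than in mESC. Col9a2 had levels of 1.13, 1.04, 1.09 and 1.11 in mESC, 0.97, 0.33, 0.49 and 0.75 at day 9 and 3.17, 3.11, 3.20 and 3.06 at day 14. Col9a3 had levels of −2.74 to −2.40, −2.93 to −2.37 and −0.20 to 0.16 in the same order. Neither was called at day 9, at −0.45 ± 0.11 and −0.16 ± 0.12, and both rose at day 14 against mESC, by 2.05 ± 0.11 and 2.56 ± 0.12, and against day 9, by 2.50 ± 0.11 and 2.72 ± 0.12.

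Col19a1 and Col9a1 are neighbours on chromosome 1. Col19a1 was above background only at day 14, with levels of −3.16 to −2.83, and was at least 5.38-fold higher than in mESC and at least 7.05-fold higher than at day 9. Col22a1, a collagen of the junction of muscle and tendon, had levels of −2.80, −2.81, −2.74 and −2.84 in mESC, −0.92, −0.32, −0.43 and −0.91 at day 9, and −1.91, −1.77, −1.87 and −1.56 at day 14. Its day 9 arrays lay above all others. Col22a1 rose by 2.15 ± 0.14 at day 9, was 1.02 ± 0.14 higher at day 14 than in mESC and was the only member lower at day 14 than at day 9, at −1.13 ± 0.14. Col20a1 had levels of −2.92 to −2.64, −4.92 to −4.14 and −3.45 to −3.26 in mESC, at day 9 and at day 14. It fell by 1.75 at day 9 (SE 0.14) and was 1.12 ± 0.14 higher at day 14 than at day 9, and the difference of day 14 from mESC, −0.63 ± 0.14, was not called. With normexp the day 9 calls of Col12a1 and Col20a1, the day 14 calls of Col19a1 and Col22a1 and the calls of Col20a1 and Col22a1 between the days were lost. The day 14 call of Col22a1 against mESC was also lost with quantile normalization, with scaling to the median and without day 14 replicate 4, and that of Col20a1 between the days with the first 2 of these and without day 9 replicate 4.

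Of 4 transmembrane genes only Col23a1 was higher at day 9, by 3.32 ± 0.17, and Col23a1 (3.78 ± 0.17) and Col25a1 (1.30 ± 0.11) were higher at day 14. The Col23a1 probe was well above background on 2 of the 4 mESC arrays. Col17a1, a collagen of the junctions that fix epidermis to its basement membrane, had levels of −1.82 to −1.66 in mESC, −2.74 to −1.81 at day 9 and −0.94 to −0.64 at day 14. It rose by 1.37 ± 0.16 at day 14 against day 9, and its difference from mESC, 0.97 ± 0.16, was not called. Its second probe was called at 1.02 ± 0.14, and without day 14 replicate 4 the gene was called at 1.02. Epidermal markers (4 genes) summed to 0.272 to 0.301 times the 75th percentile in mESC, 0.532 to 0.795 at day 9 and 3.68 to 3.95 at day 14. Col13a1, found at the nerve to muscle junction, had levels of 0.26 to 0.36, 0.25 to 0.51 and 0.37 to 0.53 in mESC, at day 9 and at day 14, with no call. Col7a1, the chain of the anchoring fibrils of skin, was also not called, at 0.20 ± 0.06, −0.09 ± 0.06 and −0.28 ± 0.06 in the 3 comparisons.

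The multiplexins Col15a1 and Col18a1 encode basement membrane collagens, the second of which yields the fragment endostatin. Col15a1 was at least 1.33-fold higher at day 9 and at least 3.70-fold higher at day 14 than in mESC. Col18a1 had levels of 4.34 to 4.44 in mESC, 5.77 to 5.93 at day 9 and 5.33 to 5.50 at day 14. It rose by 1.48 ± 0.05 at day 9 and by 1.01 ± 0.05 at day 14 against mESC, and its −0.47 ± 0.05 between the days was not called. Col26a1 had levels of 1.84 to 2.01, 1.41 to 1.48 and 3.22 to 3.36 and rose by 1.39 ± 0.05 at day 14 against mESC and by 1.83 ± 0.05 against day 9. With normexp the calls of Col15a1, the day 14 calls of Col18a1 and Col25a1 and that of Col17a1 between the days were lost. The day 14 calls of Col18a1 and Col25a1 were also lost with scaling to the median, and that of Col18a1 without mESC replicate 1, mESC replicate 4 or day 14 replicate 1.

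Many collagen chains assemble with partner chains, though not always with the same ones. The log2 ratio of partner chains was compared between groups within each array, where scaling plays no part. The 10 partnerships in 3 comparisons gave 30 ratios, each tested by an exact two-sided permutation test of 4 against 4 arrays, whose smallest p is 0.0286. In 18 of them both chains were above background on at least 3 arrays of each group, and 16 of these reached the smallest p (adjusted over all 30, 0.0317). That p is reached whenever 2 groups do not overlap, however small the change. Between 57.4% and 83.9% of all single genes had no overlap, and the share among ratios of other gene pairs was not computed, so the count says nothing particular to partner chains. The ratio of Col4a1 to Col4a2 changed by 0.30 at day 9 and 0.20 at day 14 against mESC and by −0.10 between the days. These values come from the brightest probe of each chain, and the sign turned with the probe: the second Col4a1 probe, above background on all 12 arrays, gave −0.62 and −0.79 at day 9 and −0.52 and −0.68 at day 14 against the 2 Col4a2 probes. Relative to mESC the ratio of Col1a1 to Col1a2 changed by −0.85 at day 9 and −1.54 at day 14, and that of Col5a1 to Col5a2 by −2.22 and −3.65. For Col1a1 the sign also turned with the probe. The brightest gave −0.68 at day 14 against day 9, and its other 2 probes, both measured on those days, gave 0.37 and 0.38. Against mESC, where it was above background on 2 of 4 arrays, one of these gave −0.17 at day 9 and 0.20 at day 14. For Col5a1 the second probe gave −3.09 and −4.65. The ratio of Col11a1 to Col11a2 changed by −0.10 at day 9 (exact permutation p = 0.514) and by 0.84 at day 14. With normexp its change at day 9 turned in sign, to a log2 value of 0.92.

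For the other pairs a chain was below background in mESC, and only day 14 against day 9 is given. The ratio of Col4a5 to Col4a6 changed by 0.04 (exact permutation p = 0.657), which does not show that they changed alike, and by 0.51 (exact permutation p = 0.0286) with the Col4a6 probe that was above background on all 12 arrays. That of Col6a1 to Col6a2 changed by −0.27 and that of Col6a3 to Col6a1 by −1.51, so the rise of these 3 chains between the days was uneven. That of Col8a1 to Col8a2 changed by −3.35. The ratio of Col9a1 to Col9a2 changed by −3.43 and that of Col9a3 to Col9a1 by 3.65. The pair Col4a3 and Col4a4 could not be compared, as Col4a3 was not tested.

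**Figure D3:**
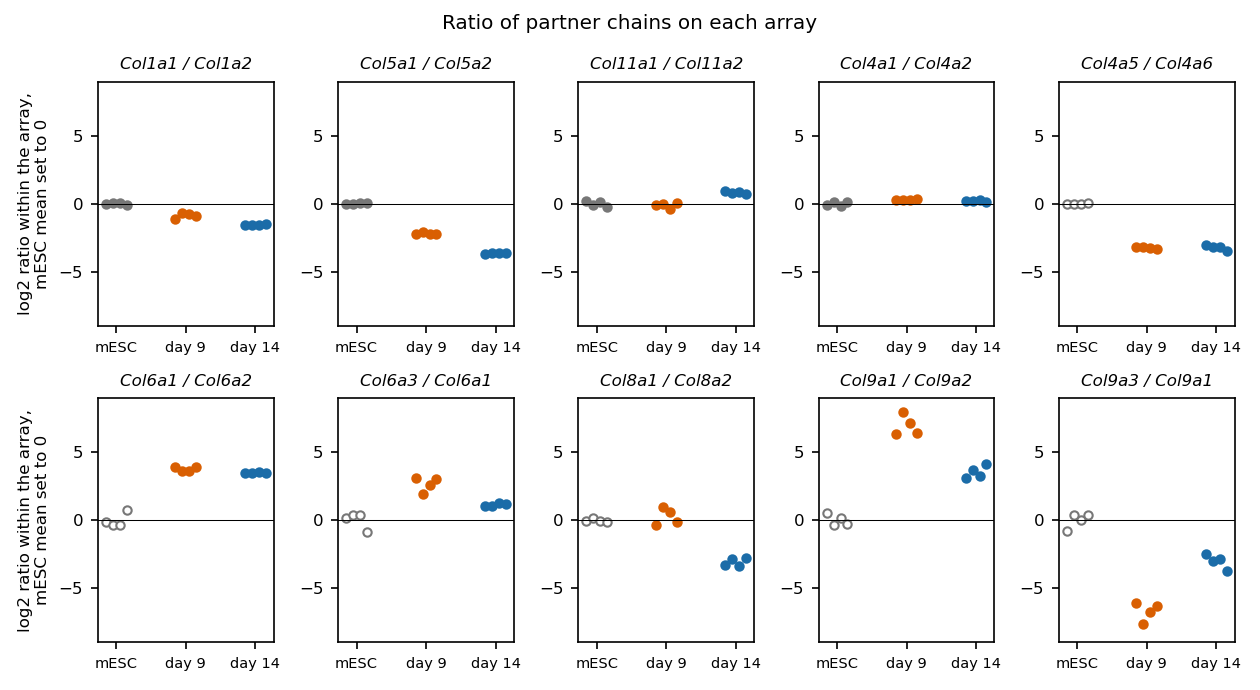
Log2 ratio of partner chains within each array (y axis), with the mean of the mESC arrays set to 0, for mESC (grey), day 9 (orange) and day 14 (blue). Open points mark groups in which a chain was below background on every array, where the ratio is not a measured one. The ratio of Col4a1 to Col4a2 lies 0.30 and 0.20 above the mESC mean at day 9 and day 14, and that of Col5a1 to Col5a2 lies at −3.65 at day 14. All ratios use the brightest probe of each chain, and with the second Col4a1 probe that of Col4a1 to Col4a2 was −0.62 and −0.52.

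Different probes of the same gene did not always give the same change. Among the members 20 genes had at least 2 tested probes, which made 23 pairs of the brightest probe with another. Of the 76 collagen probes 63 were tested, and the others are not in these pairs. Among those left out, the second probes of Col14a1, Col15a1 and Col24a1 were not above background on any array. The pair changed unequally, with a difference of at least 1 on the log2 scale, in 13 pairs (56.5%) for day 9 and 14 (60.9%) for day 14 against mESC, and in 5 (21.7%) for day 14 against day 9. Over all genes of the array 20.1%, 20.7% and 2.51% of 7363 pairs did so. In 13, 13 and 3 of the unequal pairs the brightest probe changed more. The brightest probe was picked by its mean over all 12 arrays, most of them from day 9 and day 14. That rule favours a probe that rises, so these counts were partly built in. At both days against mESC most unequal pairs held a probe that was dim in 1 group: where both probes were above background on at least 3 arrays of both groups, 2 of 8, 2 of 9 and 4 of 18 pairs were unequal, and among the rest 11 of 15, 12 of 14 and 1 of 5. The shares over all genes given above hold no such limit, and those under it were not computed. Whether collagen probes differ more than others once dim probes are set aside was not tested.

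In single genes the call depended on the probe, where 40.4% (day 9), 46.5% (day 14) and, between the days, 12.8% of all tested probes of the array were called. Of 17 genes with several probes that were called at day 9, another probe was not called in 7 (Col2a1, Col4a6, Col6a3, Col6a4, Col16a1, Col23a1 and Col27a1) and was called the opposite way in 1, Col11a2. The probes of Col11a2 changed by 1.71 ± 0.11 and by −1.02 ± 0.17 at day 9. The second was above background on 4 mESC arrays, 2 day 9 arrays and 4 day 14 arrays, and its −0.06 ± 0.17 at day 14 was not called. At day 14 against mESC another probe was not called in 3 of 17 such genes, Col2a1, Col4a6 and Col11a2. For Col2a1 both probes were above background on all 12 arrays, and they changed by 3.55 ± 0.06 and 0.52 ± 0.28 at day 14. The 3 probes of Col1a1 changed by 7.27, 7.95 and 3.92 at day 9. Between the days the brightest was not called at 0.19, and the other 2 rose by 1.25 each. Of the 2 probes of Col3a1, both below background in mESC, the second rose by 1.37 ± 0.24 between the days and the first was not called. The difference between these Col3a1 probes was just under the minimum, so the pair was not called unequal between the days. Probes of Col4a2 (4.52 and 4.69 at day 9) and Col18a1 (1.48 and 1.58) lay close together.

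**Figure D4:**
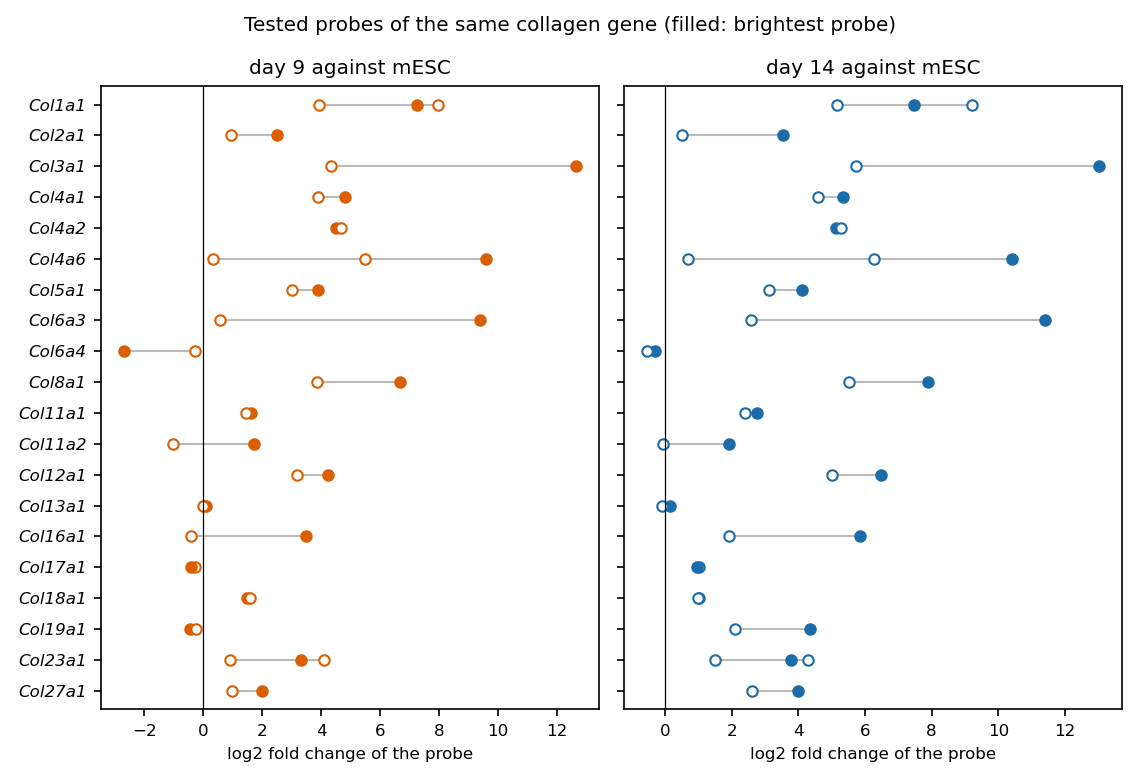
Log2 fold change of each tested probe (x axis) of the 20 collagen genes with several tested probes, at day 9 (left) and day 14 (right) against mESC. Filled points are the brightest probe, which stood for the gene, open points are its other probes, and a grey line joins probes of the same gene. The probes of Col4a6 span 0.34 to 9.58 at day 9, while those of Col4a2 lie at 4.52 and 4.69.

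The spread between arrays was widest at day 9. The median SD of the 40 members was 0.0839 in mESC, 0.288 at day 9 and 0.0943 at day 14, where that of all genes was 0.0779, 0.143 and 0.0882. Since the fit shares 1 variance over the groups, SEs given for day 9 can be too small. Of the 4 day 9 arrays, replicate 2 was the lowest in 26 of the 40 members and replicate 1 the highest in 19. The summed level of the 8 fibroblast markers on day 9 replicates 1 to 4 was 141, 61.9, 87.2 and 125, and that of the 8 cardiomyocyte markers was 213, 413, 390 and 294. This order was not particular to the fibroblast list: of the 12 marker lists 4 had it, the others being macrophage, parietal endoderm and epidermis. Ranked over the 4 arrays, 16 of the 40 members (40%) had the order of these 4 lists, beside 9.2% of all genes. They were Col1a2, Col4a5, Col5a1, Col5a2, Col5a3, Col6a1, Col6a2, Col6a3, Col8a2, Col9a2, Col12a1, Col14a1, Col15a1, Col16a1, Col18a1 and Col23a1. The opposite order, that of the cardiomyocyte, liver and cartilage markers, was that of 2 members (5%), Col13a1 and Col22a1, beside 9.69% of all genes. The part of any cell type in the spread was not tested.

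Genes that make, bind and cut collagen were taken from lists written from general knowledge, to be read beside the 41%, 46.9% and 13.8% of all genes called in the 3 comparisons. Of 35 listed genes for processing enzymes and chaperones 33 were tested, and 17 were higher and 2 lower at day 9, 22 higher and 2 lower at day 14 than in mESC, and 6 higher at day 14 than at day 9. Lox, the enzyme that starts crosslinking, was at least 193-fold higher at day 14 than in mESC, Adamts2, which trims the N-terminal propeptide, rose by 7.33 ± 0.18, its relative Adamts3 was at least 52.6-fold higher, and Pcolce2, an enhancer of propeptide cleavage, fell by 4.63 (SE 0.10). Of 12 collagen receptor genes 8 were tested, with 4 higher and 1 lower at day 9, 6 higher at day 14 and 4 higher between the days. At day 14 against mESC Mrc2, a receptor that takes up collagen fragments, rose by 6.18 ± 0.17, Itga11, an integrin of fibroblasts, rose by 4.19 ± 0.06, Itga1, another collagen-binding integrin, was at least 11.5-fold higher, and Lair1, an inhibitory receptor of blood cells, at least 13.1-fold. Of 9 collagen-degrading proteases 6 were tested, with 4 higher at day 9, 6 at day 14 and 4 between the days. Mmp2 rose by 5.17 ± 0.11 at day 14, and Fap, Ctsk and Mmp16 were at least 28.3-fold, 33.4-fold and 70.4-fold higher. The median changes of the 3 lists at day 14 were 2.07, 3.32 and 5.69, beside −0.19 for all genes. Genes given above only as bounds entered these medians.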

How the data were processed

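Per the file headers each array was read with Agilent Feature Extraction (version 12 per the submitters' processing notes), and its processed signal is deposited as a linear intensity after background subtraction, with no scaling across arrays. Median signal and local background are deposited as uncorrected intensities, and the other columns used are flags of 0 or 1, per the file headers. The series value table held the same intensities. Control spots and outlier spots were left out, spots of a probe were averaged on the log2 scale, and the 75th percentile of each array was subtracted. Probes were named through accessions in RefSeq (GRCm38.p6). The array annotation refers to another build, so probes get no positions. Of 41174 probes 28223 were named.

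Groups were compared with limma 3.58.1 in R 4.3.3 on all 20875 tested genes over 12 arrays, with Benjamini-Hochberg adjustment, and the steps were tested on simulated data. Members, classes, gene lists and tests were chosen with earlier results of these data known. Every tested member may be named, and of each gene list up to 4 called genes with the largest change at day 14. Alternatives were normexp with an offset of 50 on the median signal, quantile and median scaling, the series table, other probe filters, the mean over probes, adjustment over probes, 8 arrays only, an intensity trend, no minimum change, a replicate block, leaving out single arrays and, added after seeing the data, all probe combinations for partner ratios. The number of arrays limits the precision.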

Additional observations from a re-analysis of the deposited data

Results flagged for a closer look

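Among the 120 groups of 4 arrays that the 40 tested members make, 2 held an array far from the others of its group, where chance marks about 1 in 20. Col19a1 stood at −6.68 on mESC replicate 4, with the other mESC arrays between −7.52 and −7.48, all of them below background. Col24a1 stood at −4.73 on day 9 replicate 2, with the other day 9 arrays between −4.44 and −4.40.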

How the results depend on the processing

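Against mESC, 27 and 34 members were called higher at day 9 and day 14, and these counts stayed within 1.5 times with each alternative except the filter that keeps only probes above background on all arrays, where fewer members are tested (14 and 18, and 12 between the days). With normexp no member was lower at day 9, 14 were higher and 0 lower between the days, and 1 probe pair was unequal between the days; the cause was not tested. With scaling to the median 1 member (Col4a4) was lower at day 14 than in mESC, and 2 members were lower at day 14 than at day 9. This scaling moved the median change of all genes to −0.29, −0.51 and −0.28 and the share of higher calls among all calls to 43.5%, 36.3% and 58.9%, against 48.8%, 48.6% and 73.8%. With no minimum change 7, 2 and 4 members were lower. With probes above background on all arrays 1 probe pair was unequal in each comparison (1, 1 and 1), among fewer pairs, and the share over all genes was not computed. Leaving out single arrays gave 27 to 27 higher and 3 to 4 lower at day 9, 33 to 34 and 0 to 0 at day 14, and 21 to 23 higher and 1 to 2 lower between the days. The second lower call was Col9a1, without day 9 replicate 1, day 9 replicate 4 or day 14 replicate 4. Reversed values were Col6a4 between the days on probes above background on all arrays (−0.25) and the ratio change of Col11a1 over Col11a2 at day 9 with normexp (0.92). In an alternative chosen after seeing the data, with every measured combination of probes, the ratio change of Col4a1 over Col4a2 reached −0.79 at day 9, −0.68 at day 14 and 0.12 between the days, and that of Col1a1 over Col1a2 0.38 between the days.

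Deviations of arrays with the same replicate number correlated at −0.0749 to 0.184 over the 3 comparisons, and 1 of the pairs was over 0.1. Samples that share a culture need not deviate together, so these values cannot show whether the numbers pair samples. The replicate block left the counts at 27 and 4, 34 and 0, and 22 and 1, and changed no call. Levels below background limit 12 members to bounds against mESC.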
